A study of Drosophila pseudoobscura and Drosophila ananassae and Drosophila yakuba with 13 samples.

Results

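Odorant receptor (Or) and gustatory receptor (Gr) genes were followed in testes and ovaries of the fly Drosophila pseudoobscura. All genes whose symbol begins with Or or Gr and a digit were taken, which gave 16 Or and 23 Gr genes, 39 of 11946 that the authors' deposited table lists. They are not the whole families. RefSeq's assembly UCI_Dpse_MV25 names 41 Or and 39 Gr genes, of which 33 Or and 20 Gr symbols are not among those taken. Whether such genes are listed under other names was not checked. The gonads came from virgin wild-type adults of strain 14011-0121.94, aged 6 to 10 days and grown at 20 °C, with the attached ducts removed. They were sequenced as 2 testis and 3 ovary libraries of single 50-base reads from polyadenylated RNA. The study compares testis with ovary to find genes biased towards 1 sex. A second table, for D. ananassae, lists 11576 genes and no symbol of either family (0 receptors). None of the other gene lists used below had a symbol there either, muscle and accessory gland markers included. The absence of receptor symbols therefore does not show whether receptors were expressed in D. ananassae. D. yakuba was not analysed here.

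Insects smell and taste with these families. Odorant receptors are membrane proteins that pair with a shared co-receptor, Orco, to form an ion channel opened by an odour, and each is typically made in a small class of neurons of the antenna or the maxillary palp. Gustatory receptors are related membrane proteins of the taste neurons, among them a clade that detects sugars and many members that detect bitter compounds. Both families are known mainly from sensory organs, and the roles named below were worked out in D. melanogaster.

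The deposited table gives each gene 1 log2 fold change, 1 log2 average expression and 1 edgeR likelihood-ratio test, with no value per library. No value per sample, spread between replicates or library depth can therefore be given, and whether the libraries came from separate sets of flies is not stated, so p-values measure the spread between these libraries, which may be technical. The header does not give the sign's meaning, and positive values are taken here to mean more RNA in testis, because the table's title puts that tissue first. Known gonad genes, which helped to settle this and are no independent evidence of it, had the matching signs, with TrxT, a thioredoxin of the testis, at 5.89, and bcd, whose mRNA is stored in the egg, at -9.82 in the authors' deposited table. Unless another quantity is named, the value given with a gene is its log2 fold change, testis over ovary. A gene is called testis-biased or ovary-biased where its adjusted p is under 0.05. Average expression is on the log2 scale after rescaling the table to a sum of 1000000, is not divided by gene length, and serves only to place a receptor in the table. In whole gonads, fewer cells of a type and less RNA per cell cannot be told apart.

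Among the 39 receptors taken, Or genes were called for testis more often than for ovary, and Gr genes the other way round. Of the 16 Or genes 8 were testis-biased, 5 were ovary-biased and 3 had no call in the authors' deposited table. Of the 23 Gr genes 4 were testis-biased, 15 were ovary-biased and 4 had no call in that deposited table. Called receptors made up 81.2% of the Or and 82.6% of the Gr genes in the authors' deposited table, beside 73.7% of all genes and 80.2% of those in the receptors' own range of average expression. Testis bias was called for 50% of the Or and 17.4% of the Gr genes, beside 29.6% of all genes. Ovary bias was called for 31.2% of the Or and 65.2% of the Gr genes, beside 44.1% of all genes. The median log2 fold change was 4.92 over the Or and -2.98 over the Gr genes, beside -0.85 over all genes of the authors' deposited table. The Or median falls in the gap between Or98a2 at 2.02 and Or65b1 at 7.83, which was not called, and it was 9.71 over Or genes named without a copy number. Under Bonferroni adjustment over all genes 4 Or genes remained testis-biased and 2 ovary-biased, and among Gr genes 3 were testis-biased and 8 ovary-biased. The difference between the families was not tested, since the receptors are neither independent nor replicates of a tissue.

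**Figure D1:**
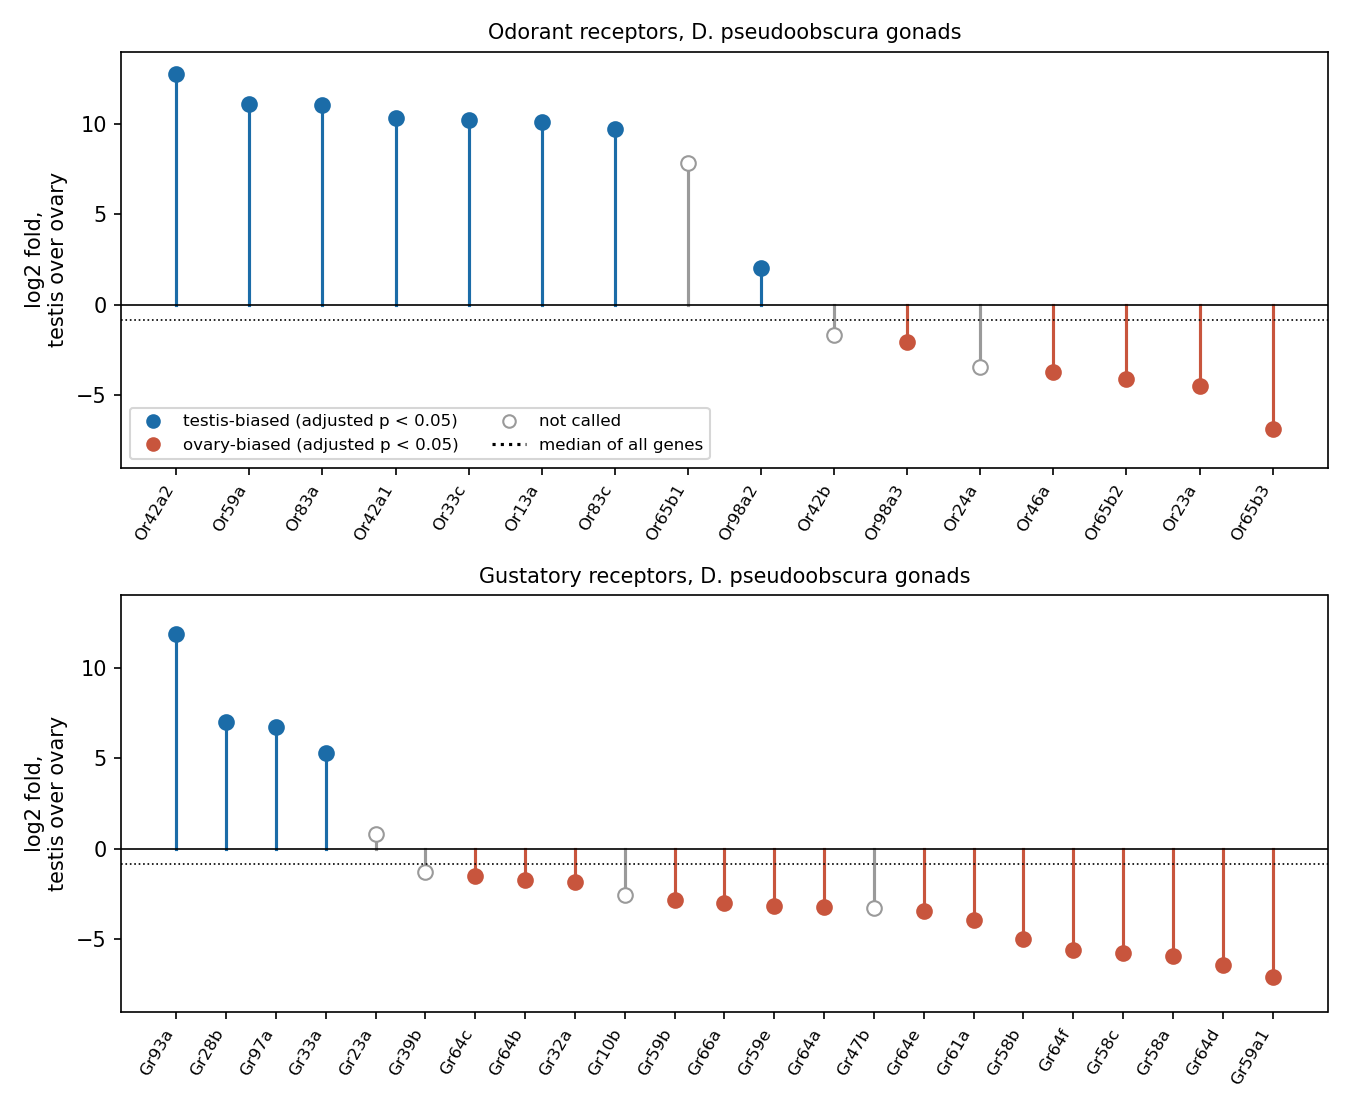
Log2 fold change, testis over ovary, of each odorant receptor (top) and gustatory receptor (bottom) in D. pseudoobscura, ordered from the highest to the lowest. Filled points passed an adjusted p under 0.05 and open points did not, and the dotted line marks the median of all genes at -0.85. 7 of the odorant receptors called for testis stand above 9 and the eighth, Or98a2, at 2.02, while most gustatory receptors lie below the line.

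Among the testis-biased odorant receptors, Or42a2 had the largest log2 fold change, 12.77 (adjusted p = 1.57e-10 in edgeR's likelihood-ratio test, authors' deposited table). Its namesake Or42a answers fruit esters in the maxillary palp and the larva. Or59a at 11.10, Or83a at 11.06, Or42a1 at 10.31, Or33c at 10.20, Or13a at 10.12 and Or83c at 9.71 followed in the authors' deposited table. Or33c is a receptor of the maxillary palp, and Or83c detects the terpene alcohol farnesol. The smallest testis bias was that of Or98a2, at 2.02 (adjusted p = 0.00162 in edgeR's likelihood-ratio test, authors' deposited table). Under Bonferroni adjustment over all genes the calls of Or42a1, Or33c, Or83c and Or98a2 were lost.

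Log2 folds of nearly equal size rested on very different tests. Or13a, Or33c and Or42a1 lay between 10.12 and 10.31, yet their likelihood-ratio statistics were 76.9, 13.3 and 9.08 in the authors' deposited table. The adjusted p of edgeR's test was 7.85e-18 for Or13a, 0.000452 for Or33c and 0.00403 for Or42a1, again as deposited by the authors. Or13a thus had the largest statistic of the 39 receptors, although 5 other Or genes and 1 Gr gene had a larger fold. Or65b1 is the extreme case, with a log2 fold change of 7.83 and no call (statistic 0.0696, adjusted p = 0.819 in edgeR's likelihood-ratio test, authors' deposited table). Of the 2201 genes with a log2 fold change above 7 in the authors' deposited table, 111 were not called, against 0 of the 1322 genes below -7. The highest average expression among those 111 genes was 0.37, and that of Or65b1 was -1.68. The table does not give the reads of each tissue, so no fold of this size can be turned into a level in testis or in ovary.

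Each ovary-biased odorant receptor had a smaller fold than any testis-biased one except Or98a2. Or65b3 led with a log2 fold change of -6.85 (adjusted p = 1.86e-14 in edgeR's likelihood-ratio test, authors' deposited table). Or23a followed at -4.46, Or65b2 at -4.12, Or46a, a receptor of the maxillary palp, at -3.70, and Or98a3 at -2.08 in the authors' deposited table. The calls of Or23a, Or46a and Or98a3 were lost under Bonferroni adjustment, and that of Or98a3 also under Benjamini-Yekutieli adjustment. Besides Or65b1, the receptors without a call were Or24a, known from larvae, at -3.44, and Or42b, which mediates attraction to vinegar, at -1.67 in the authors' deposited table. Their adjusted p was 0.124 for Or24a and 0.0917 for Or42b in edgeR's likelihood-ratio test.

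Receptors numbered as copies of 1 gene did not always share a direction. Or98a2 had a testis bias of 2.02 and Or98a3 an ovary bias of -2.08 in the authors' deposited table, and both calls fell away under Bonferroni adjustment. The Or65b copies stood at 7.83 for Or65b1, which was not called, -4.12 for Or65b2 and -6.85 for Or65b3 in the authors' deposited table. In D. melanogaster, Or65b is made in the same antennal neurons as Or65a. Or42a1 and Or42a2 were both testis-biased, while Or42b, whose symbol shares their number, stood at -1.67 without a call. How reads that match several copies were counted is not given in the sources used here, so the values of numbered copies are uncertain one by one. The difference between copies was not tested.

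Gr64a to Gr64f and Gr61a belong to the sugar receptor clade, whose member Gr5a is not among the 39, and were grouped after their values were known. In the authors' deposited table all 7 were ovary-biased, beside 44.1% of all genes. Log2 fold changes were -6.43 for Gr64d, -5.60 for Gr64f, -3.96 for Gr61a, -3.43 for Gr64e, -3.22 for Gr64a, -1.70 for Gr64b and -1.52 for Gr64c in the authors' deposited table. Gr64f acts as a co-receptor for many sugars, Gr64a and Gr61a detect particular sugars, and Gr64e detects glycerol. The adjusted p ran from 3.7e-14 for Gr64d to 0.0289 for Gr64c in edgeR's likelihood-ratio test. Gr64b and Gr64c lay less than 1 log2 unit below the median gene, at -0.85 and -0.67 relative to it. Their calls were lost under Bonferroni or Benjamini-Yekutieli adjustment, with a minimum of 4-fold, after centring on the median gene with a minimum of 2-fold, and at a threshold of 0.01. Gr64a lost its call under Bonferroni adjustment only, and the other 4 genes kept theirs in all these settings.

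These sugar receptor genes are neighbours on the chromosome. In RefSeq's assembly UCI_Dpse_MV25, which need not be the build used by the authors, Gr64f, Gr64e and Gr64d follow each other directly, then comes 1 protein-coding gene without a receptor symbol, then Gr64b, Gr64a and Gr61a. Gr64c is not named there, and no position was assigned to it. Log2 folds did not run evenly along the row, with the 2 strongest ovary folds, at Gr64d and Gr64f, standing on either side of the weaker Gr64e at -3.43.

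Gr58a, Gr58b and Gr58c form a second run, also set apart with its values known. All of them were ovary-biased, beside 44.1% of all genes, and their values were close. Their log2 fold changes were -5.94, -4.98 and -5.76 in the authors' deposited table, and their rescaled average expression was 2.83, 2.77 and 2.68. The least significant of them, Gr58b, had an adjusted p of 2.22e-10 in edgeR's likelihood-ratio test. In the same RefSeq assembly the span of Gr58b overlaps that of Gr58c, and Gr58a comes next to them. Gr58a's own span there overlaps 4 genes without an Or or Gr symbol, and that of Gr58b overlaps 1 such gene. Whether the counting used strand is not given in the sources used here, so reads of overlapping genes cannot be told apart, and the values of Gr58a, Gr58b and Gr58c are uncertain one by one.

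**Figure D2:**
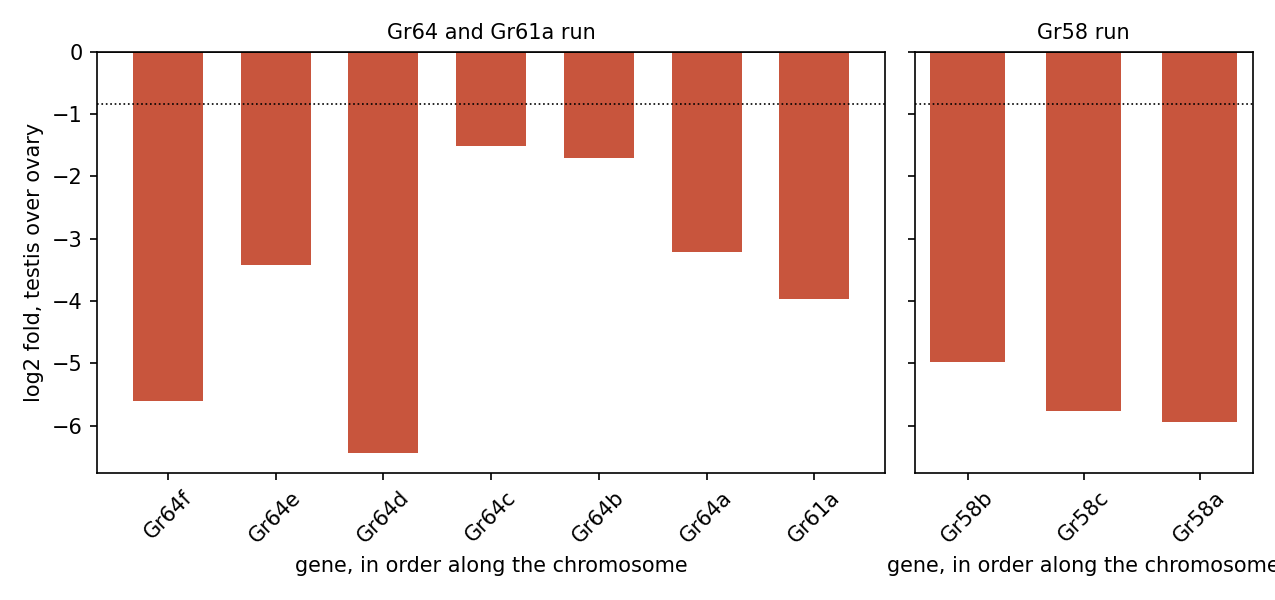
Log2 fold change, testis over ovary, of the gustatory receptors of the Gr64 and Gr61a run (left) and the Gr58 run (right) in D. pseudoobscura, drawn in RefSeq's gene order except Gr64c, which RefSeq does not name and which is drawn in letter order. All 10 bars are ovary-biased, beside 44.1% of all genes, and the runs were set apart with their values known. Bars reach from -1.52 to -6.43 in the left panel and from -4.98 to -5.94 in the right. The dotted line marks the median of all genes at -0.85.

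The runs supplied 10 of the 15 ovary-biased gustatory receptors. Outside them, 4 of 13 Gr genes were testis-biased, 5 were ovary-biased and 4 were not called in the authors' deposited table. As shares these were 30.8% for testis and 38.5% for ovary, beside 29.6% and 44.1% of all genes. The 10 genes left out were all ovary-biased and were set apart with their values known. Leaving them out therefore had to lower the ovary share and raise the testis share. The median log2 fold change of the 13 Gr genes outside the runs was -1.84. Of the 27 receptors that RefSeq names, 19 Gr and 8 Or, the span of 8 overlaps another gene, and all 8 are Gr genes. They are Gr32a, Gr33a, Gr58a, Gr58b, Gr58c, Gr64b, Gr64f and Gr66a, of which the authors' deposited table has 1, Gr33a, as testis-biased and 7 as ovary-biased. Of the 19 without such an overlap, 7 were testis-biased, 7 were ovary-biased and 5 had no call. The part of overlapping genes in these values was not tested.

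**Figure D3:**
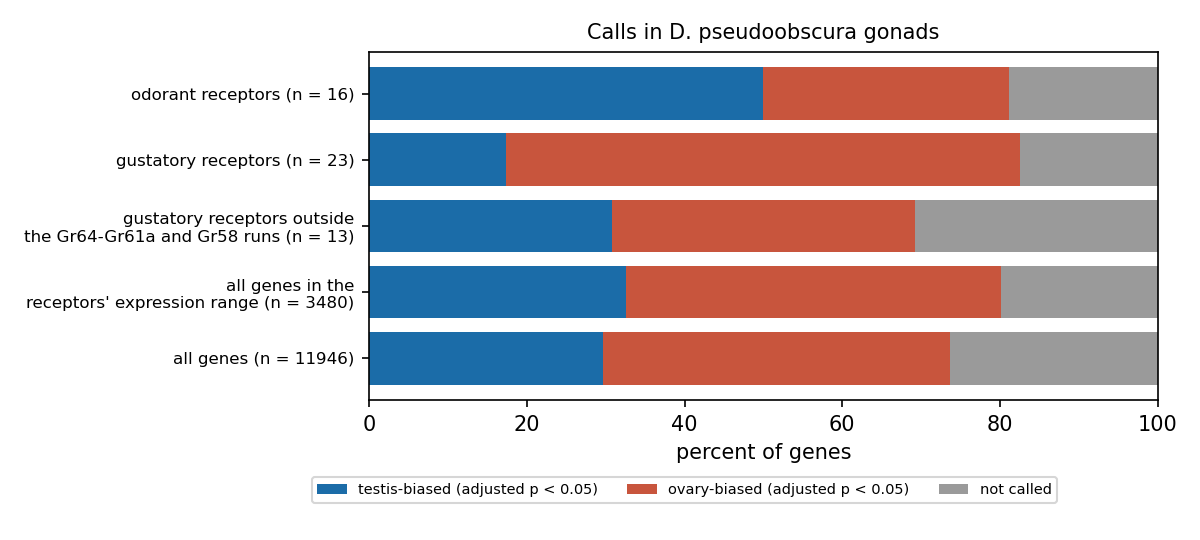
Percent of genes called testis-biased, ovary-biased or not called at an adjusted p under 0.05, for odorant receptors (n = 16), gustatory receptors (n = 23), gustatory receptors outside both runs of neighbouring genes (n = 13), all genes in the receptors' range of average expression (n = 3480) and all genes of the table (n = 11946). Testis bias covers 50% of odorant and 17.4% of gustatory receptors, beside 29.6% of all genes.

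The bitter taste receptors named here, which are not a full list of that group, fell on both sides. Gr93a, needed for the response to caffeine, had the largest testis bias of the family, with a log2 fold change of 11.86 (adjusted p = 7.49e-10 in edgeR's likelihood-ratio test, authors' deposited table). Gr33a, a broadly expressed co-receptor for bitter compounds, had a testis bias of 5.30 in the authors' deposited table. Gr66a, which takes part in caffeine and other bitter responses, had an ovary bias of -2.98, and Gr32a, which also restrains male courtship of other males, one of -1.84 in the authors' deposited table. The call of Gr32a was lost under Bonferroni or Benjamini-Yekutieli adjustment, with a minimum of 4-fold and at a threshold of 0.01. It was also lost after centring on the median gene with a minimum of 2-fold. Those of Gr33a and Gr66a were lost under Bonferroni adjustment only. Gr39b, a receptor of bitter neurons, and Gr47b stood at -1.30 and -3.29 without a call in the authors' deposited table. Their adjusted p was 0.122 and 0.139 in edgeR's likelihood-ratio test. Ovary bias was called for Gr59a1 at -7.11, the lowest of the 39 receptors. It was also called for Gr59e at -3.18 and Gr59b at -2.83 in the authors' deposited table. The call of Gr59e was lost under Bonferroni adjustment only. That of Gr59b was lost under Bonferroni or Benjamini-Yekutieli adjustment and at a threshold of 0.01. Gr59e and Gr59b are not neighbours in RefSeq's assembly, where Gr59e stands beside Gr59f, a gene that is not among the 39.

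The remaining testis-biased gustatory receptors were Gr28b and Gr97a. Gr28b, which serves light and heat sensing as well as taste, had a log2 fold change of 7.03 (adjusted p = 5.64e-10 in edgeR's likelihood-ratio test, authors' deposited table). For Gr97a the log2 fold change was 6.72 (adjusted p = 1.31e-10 in edgeR's likelihood-ratio test, authors' deposited table). Gr10b at -2.57 and Gr23a at 0.79 were not called in the authors' deposited table. Gr23a was the only Gr gene with a positive fold and no call.

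All 39 receptors stood low in the table by average expression, between -1.89 (Gr47b) and 3.28 (Or42a2) on the rescaled log2 scale, and none of them reached the median gene at 4.88. The share of genes with a lower average was 0.678% for Gr47b and 29.8% for Or42a2. Calls differed along that range. Of the 13 receptors with an average below 0, 0 were testis-biased, 7 were ovary-biased and 6 were not called in the authors' deposited table. Among all 1098 genes of the same range below 0, 65.8% were called, 10.9% for testis and 54.9% for ovary. Of the 26 receptors with an average of 0 or above, 12 were testis-biased, 13 were ovary-biased and 1, Gr23a, was not called, beside 86.8% called among the 2382 genes of that range, 42.6% for testis and 44.2% for ovary. In that upper range the authors' deposited table called 8 of 9 Or genes testis-biased and 12 of 17 Gr genes ovary-biased. The whole range, from the lowest to the highest receptor, held 3480 genes, of which 32.6% were testis-biased and 47.6% ovary-biased.

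Large testis folds were common among genes of like average expression. Of 512 genes within 0.25 log2 units of the average of Or42a2, 14.6% had a higher log2 fold change than its 12.77. For Or13a the share was 14.6% of 377 genes and for Gr93a 12.3% of 405 genes, while for Or83c it was 4.17% of 288 genes in the authors' deposited table. On the ovary side, 19.8% of 333 genes of like average had a lower fold than Gr64d and 21.1% of 299 genes a lower one than Gr59a1.

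**Figure D4:**
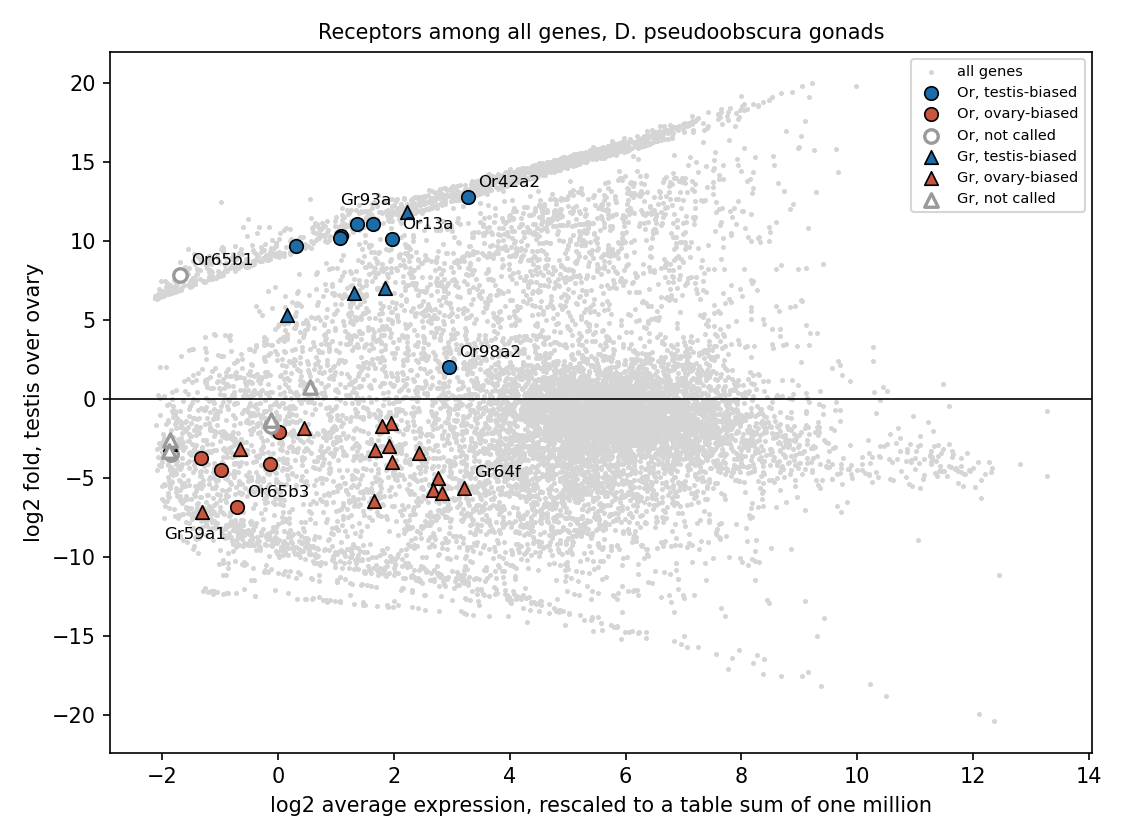
Log2 fold change, testis over ovary, against rescaled log2 average expression for all 11946 genes of the D. pseudoobscura table (grey), with odorant receptors as circles and gustatory receptors as triangles, filled by call. The receptors lie between -1.89 and 3.28 on the horizontal axis, and testis-biased receptors are found only to the right of 0, beside a band of genes with large testis folds.

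The molecules that work with odorant receptors in sensory hairs were called in both directions. Orco, the co-receptor on which odorant receptors depend, had a log2 fold change of 7.02 and was not called (statistic 0.490, adjusted p = 0.531 in edgeR's likelihood-ratio test, authors' deposited table). Its rescaled average, -1.92, lay below those of all 39 receptors, and 8 Or genes were called testis-biased beside it. Snmp1, a membrane protein needed to detect a fly pheromone, had an ovary bias of -7.90, and Snmp2, of the same family, a testis bias of 4.28 in the authors' deposited table. Of 21 odorant-binding proteins, soluble carriers of odours, 6 were testis-biased, 5 were ovary-biased and 10 had no call in the authors' deposited table. Among all genes 29.6% were testis-biased and 44.1% ovary-biased. The median log2 fold change of the 21 odorant-binding proteins, called or not, was 6.53. That is the value of Obp83a, which was not called (statistic 0.106, adjusted p = 0.777 in edgeR's likelihood-ratio test). Obp56c, Obp57de, Obp83g, Obp56d and Obp58d also had no call, with folds from 8.25 to 9.90 and averages of 0.37 or lower. Folds of the remaining uncalled ones lay between -1.28 and 0.78. With 11 of 21 called, the share of odorant-binding proteins lay below the 73.7% of all genes. Shares differed with average expression, 65.8% being called among genes of the receptors' range with an average below 0. No share matched to the averages of the odorant-binding proteins was computed. Those with the smallest adjusted p were Obp44a at 10.58, Obp19c at -11.61, Obp99a at 9.34 and Obp84a at -9.82 in the authors' deposited table. The esterase gene Est-5B, of a family that can break down odorants, had an ovary bias of -3.32 in the authors' deposited table. Of the rhodopsins, which sense light, Rh4 was testis-biased at 2.08, ninaE ovary-biased at -5.19, and Rh2 not called at 8.28 in the authors' deposited table. No symbol of the ionotropic receptors or of the listed taste signalling genes was found in the table (0 measured in each).

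Accessory gland markers were called for testis and muscle markers for ovary. None of 11 listed neuron markers was present under its symbol (0 measured), so the presence of sensory or other neurons could not be checked. All 5 measured accessory gland markers of 11 listed were testis-biased, beside 29.6% of all genes, with a median log2 fold change of 8.31 and averages from -0.96 for Acp53C14c to -0.21 for Acp53C14a in the authors' deposited table. All 7 measured muscle markers of 12 listed were ovary-biased, beside 44.1% of all genes, and their median log2 fold change was -9.21 in the authors' deposited table. No fat body marker of 7 listed was measured under its symbol (0 measured). The part of attached tissue in the receptor values was not tested.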

How the data were processed

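Tools named in the submitters' processing notes are the aligner Bowtie2 2.1.0, the read counter HTSeq 0.5.4p3, the programs Cuffdiff 2.1.0 and Cufflinks 2.1.0, and edgeR. Genome build, annotation, filters and normalization were not stated there. For each gene the authors deposited, per the file headers, the log2 fold change, the log2 average, the likelihood-ratio score and its p-value, together with a false discovery rate that is called adjusted p here. The deposited p-value equalled the chi-square tail of the score with 1 degree of freedom within 0.494%, and the adjusted p equalled the Benjamini-Hochberg value over all genes within 0.746%, in the D. pseudoobscura table. The linear averages of that table summed to 8.09e+06 times 1000000, so they were rescaled to a sum of 1000000.

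Tests are the authors', fitted by them over 2 testis and 3 ovary libraries and adjusted over all 11946 genes. No test over libraries could be run, and depth per library is unknown. Families are described by counts and medians beside the whole table and beside genes in the same range of average expression. The members and gene lists were chosen with earlier results of these data known. All receptors are named, and in other chemosensory lists up to 4 by smallest adjusted p. Symbols of the form Cyp were counted only where they name a cytochrome P450. Of the 39 receptors 27 matched a symbol of RefSeq's assembly UCI_Dpse_MV25. That assembly was used only for gene order, for overlaps between gene spans and for the count of receptor symbols. Computations used Python 3.11.15, numpy 2.4.6, pandas 2.3.3, scipy 1.17.1 and matplotlib 3.10.9.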

Additional observations from a re-analysis of the deposited data

How the results depend on the processing

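Centring, the alternative that shifts the fold of a gene, subtracted the median of -0.85 from each log2 fold change. No ovary-biased gene of the whole table stood above -1.31, so none of the 32 called receptors could change direction. Bonferroni adjustment left 17 of the 32 calls, with 4 testis-biased and 2 ovary-biased Or genes and 3 testis-biased and 8 ovary-biased Gr genes, beside 50.1% of all genes called. Calls numbered 27 under Benjamini-Yekutieli adjustment (64.7% of all genes called), 29 with a minimum of 4-fold (64.3%), 29 after centring with a minimum of 2-fold (68.8%), and 28 at a threshold of 0.01 (67.3%). Centring moved the median log2 fold change to 5.77 for the Or and -2.13 for the Gr genes. With the 8 names that carry a copy number left out, 5 Or genes were testis-biased and 2 ovary-biased. Among all genes 29.6% were testis-biased and 44.1% ovary-biased. The medians without those names were 9.71 for the Or and -2.90 for the Gr genes. Without the runs of neighbouring Gr genes, an alternative chosen after seeing the data, 5 of 13 Gr genes were ovary-biased, beside 44.1% of all genes. The median of those 13 Gr genes was -1.84. No receptor reached the average of the median gene, so the alternative restricted to such genes gave no value. No paired analysis was possible because the table holds no values per library, and for the same reason no replicate could be left out.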
